A study of Rattus norvegicus with 30 samples.

Results

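The first day of induction of a mutant huntingtin fragment was examined in the Q74 lines, by comparing day 1 with day 0 in lines 4 and 6. The 8 arrays of these lines and days were taken by their labels from the 30 arrays of the series. Each line and day had 2 RNA isolations, which were averaged, and the change from day 0 was taken within a line. All cells were PC12, a rat phaeochromocytoma line of chromaffin cell origin. The Q74 lines carry a doxycycline-inducible exon 1 fragment of human huntingtin with 74 glutamines, fused to green fluorescent protein. The Q23 lines 1 and 5 carry the same construct with 23 glutamines, and PC12 cells without a construct were cultured in parallel. Day 0 was uninduced and day 1 was 1 day of 1 μg/ml doxycycline in Q74, in Q23 and in PC12. The 8 Q23 arrays and 4 PC12 arrays of the same days serve as background. Each line is 1 clone, so only 2 clones stand behind each construct, and the PC12 arrays are taken as RNA isolations of 1 culture.

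Huntington's disease is caused by an expanded CAG repeat in the HTT gene, which lengthens a run of glutamines at the start of the huntingtin protein. Fragments of the expanded protein misfold, bind other proteins, among them transcription factors and co-activators, and collect in aggregates, and altered transcription is a known feature of affected neurons and of cell models. PC12 cells make and store dopamine and are widely used as a stand-in for catecholamine neurons. Among the cells that express the mutant fragment, few hold aggregates after 1 day and nearly all do by day 5, so day 1 samples the response before most aggregates are visible. RNA was measured in bulk, and a change in few cells cannot be told apart from a smaller change in every cell.

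Signals of 22521 probes were read on Illumina RatRef-12 arrays and deposited as variance-stabilized values, taken here as natural logs, so a difference of 0.41 is a 1.5-fold change. Folds of dim probes are compressed on this scale. No table that pairs probes and genes was used here, so probes are counted and described by their values, 4 are named by their probe identifiers, and no gene, pathway or cell type marker is reported. The 8 Q74 arrays were alike, with medians of 4.77 to 4.82 and a correlation of 0.992 to 0.997 across probes between the isolations of a line and day. The median SD between isolations was 0.0811. One array stood apart for a few probes. In Q74 line 4 at day 0, 9 probes differed by over 1 natural log unit between the isolations, against 2 probes in this line at day 1, 1 and 0 in line 6 on the same days, and 0 on these days in Q23. PC12 had 7 such probes at day 0 and 3 at day 1.

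The Q74 lines changed at day 1 in a small set of probes, and most of these rose. With the line as a block, 86 probes were higher (0.382% of all probes tested) and 10 were lower (0.0444%) by limma's moderated test with an adjusted p under 0.05, which is 8.6 rises for each fall. The rises were modest, with a median of 1.40-fold and a range of 1.27 to 1.73-fold. The falls were to a median of 0.713 of the day 0 level, with a range of 0.615 to 0.763. The count of calls depended on how the spread was estimated. It was 4 without the replicate block, 62 when the block was random, and 213 (149 higher and 64 lower) from days 0 and 1 alone. It was 49 from the Q74 groups alone, and leaving out either Q23 line gives this same fit. It was 46 without isolation 1 and 7 without isolation 2. With 1 Q74 line left out, the change rests on 1 clone and the spread on Q23 alone, so no count of such a fit is read as a result.

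The excess of rises grew with the strictness of the limit. At an unadjusted limma p under 0.05, 4.81% of all probes passed, near what that limit gives with no change at all. Of these, 535 probes were higher and 548 lower, so that 49.4% were rises. This near balance depended on the fit and the scaling. The counts were 316 higher and 184 lower without the replicate block, 494 and 403 when the block was random, and 544 and 484 after centring on array medians. The share of rises was 64.8% at p under 0.01 (206 against 112, 1.41% of all probes). It was 85.1% at p under 0.001 (103 against 18, 0.537%) and 90.5% at p under 1e-04 (76 against 8, 0.373%). The probes as a whole were centred near 0. The median change over all probes was 0.0042 in line 4 and −0.0066 in line 6, and 51.9% and 46.1% of probes were higher at day 1. In Q23, the same fit had more falls than rises at the limits that any probe passed. The counts were 264 higher and 380 lower at p under 0.05 (2.86% of all probes) and 32 and 61 at p under 0.01 (0.413%). They were 0 and 3 at p under 0.001 (0.0133%), while 0 probes passed 1e-04. These Q23 shares are below what the limits of 0.05 and 0.01 give with no change. No Q23 probe passed adjustment by limma (0% of 22521, smallest adjusted p 1).

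**Figure D1:**
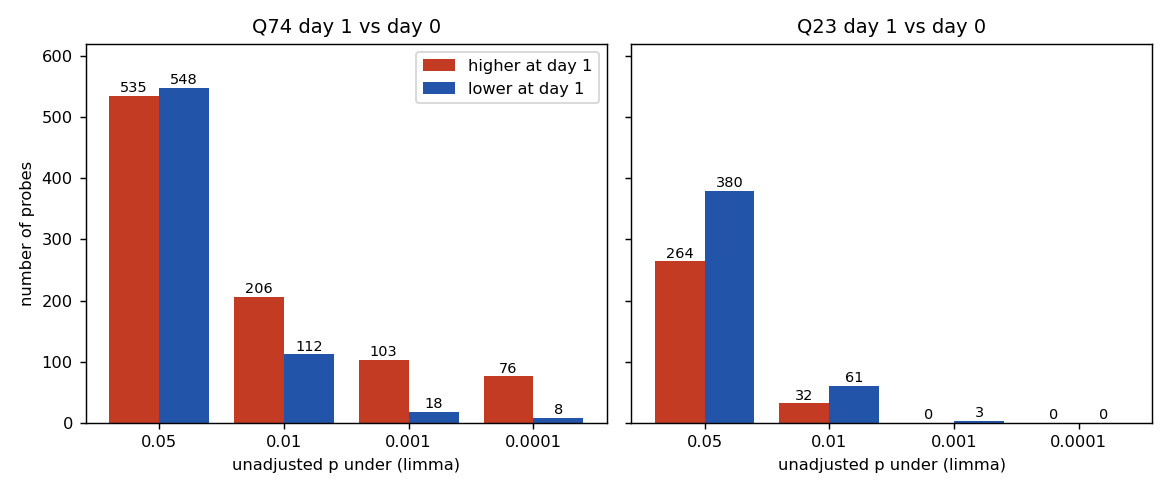
Number of probes higher (red) and lower (blue) at day 1 than at day 0 under 4 limits on limma's unadjusted p, in the Q74 lines (left) and the Q23 lines (right). Rises and falls in Q74 are near equal at 0.05 (535 and 548, together 4.81% of all probes). They part at stricter limits (76 and 8 at 0.0001), whereas Q23 has 0 of either there.

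The same asymmetry was seen in fold changes with no test. Over 1.5-fold, 26 probes rose and 5 fell in line 4, and 21 rose and 4 fell in line 6. Of these, 12 rose (0.0533%) and 2 fell (0.00888%) in both lines. No Q23 probe passed 1.5-fold in either line, and in PC12 4 rose (0.0178%) and 0 fell. A lower limit was set at a rise of 25%, which is 0.22 natural log units, and at a fall of the same size on the log scale. At this limit, 88 probes rose (0.391%) and 18 fell (0.0799%) in both Q74 lines, 0 moved in opposite directions, and 0 passed in both Q23 lines. Single lines were less far apart at this size. Line 4 had 212 rises and 108 falls, line 6 had 126 and 99, Q23 line 1 had 34 and 76, Q23 line 5 had 52 and 60, and PC12 had 46 and 37. At 1.1-fold, rises and falls shared by the Q74 lines were 413 and 383, and the excess was small.

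The Q74 lines had in common a small part of their changes, which lay at the extremes. Across the 22521 probes, the change in line 4 and the change in line 6 had a Pearson correlation of 0.162 and a Spearman correlation of 0.0745. The 9 other pairs among the 4 lines and PC12 had Pearson correlations of −0.0122 to 0.0589. Probes are not independent replicates, and all arrays share 1 platform and 1 deposited table. In sign alone, 24.8% of probes were higher in both Q74 lines, 26.7% lower in both, 27.2% higher in line 4 only and 21.3% higher in line 6 only.

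Large changes found in either line mostly had the same direction in the other, and fewer reached the same size there. Of all probes, 51.9% were higher in line 4 and 46.1% in line 6. Of the 212 probes over 25% higher in line 4, 169 (79.7%) were higher in line 6, with a median of 1.16-fold, and 88 passed the same limit there. Of the 126 over 25% higher in line 6, 113 (89.7%) were higher in line 4, with a median of 1.33-fold. Falls carried over less far in size. The 108 probes that fell by that size in line 4 had a median of 0.922 of the day 0 level in line 6, where 92 (85.2%) were lower and 18 passed. The 99 that fell in line 6 had a median of 0.937 in line 4, where 69 (69.7%) were lower. Over 1.5-fold, 24 of the 26 rises in line 4 were higher in line 6, with a median of 1.49-fold, and 20 of the 21 rises in line 6 were higher in line 4, with a median of 1.52-fold.

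**Figure D2:**
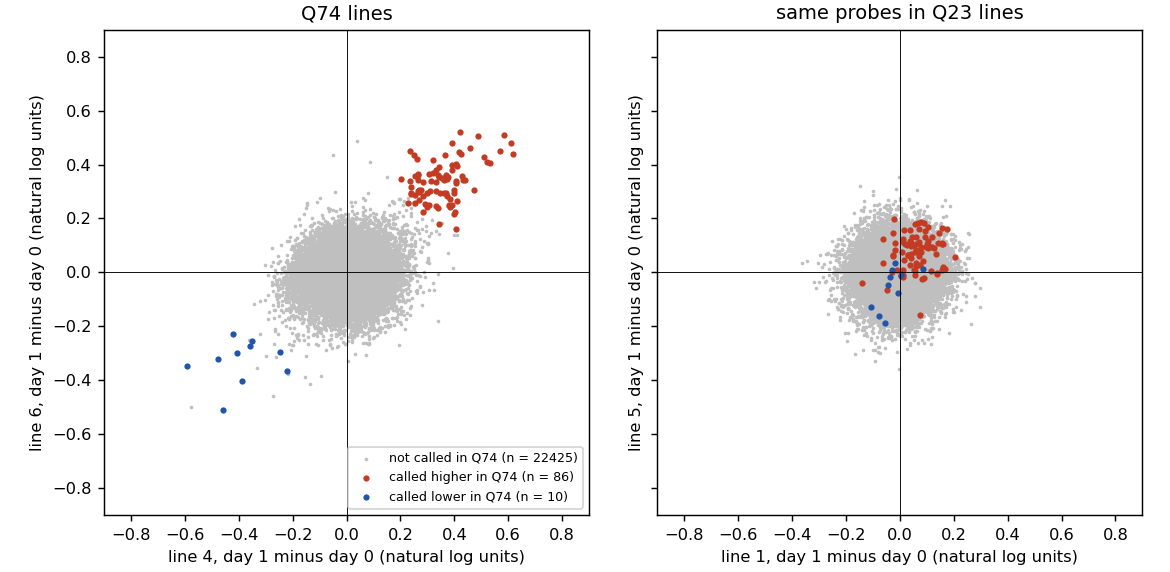
Change from day 0 to day 1 of each probe in the 2 Q74 lines (left, line 4 across and line 6 up) and of the same probes in the 2 Q23 lines (right), in natural log units. The 86 probes called higher in Q74 (red) and the 10 called lower (blue) lie at the corners of the left panel because the test chose them there, while in the right panel the red probes sit a little above 0; 3 probes of line 4 lie beyond the axis limit of 0.9.

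The largest rises of line 4 were not shared. There, 3 probes rose by over 2-fold, by 5.53, 3.67 and 2.81-fold, while line 6 gave 0.997, 1.06 and 0.972-fold for them. For the largest of these, the day 0 value of line 4 was 5.40 in isolation 1 and 8.84 in isolation 2, and its day 1 values were 8.79 and 8.88. The other 2 had day 0 values of 5.29 and 8.23, and of 4.66 and 6.85. These rises rest on 1 array, which is the one that stood apart, and in isolation 2 the 3 changes were 1.03, 1.01 and 0.899-fold. None of the 3 was among the called probes (limma adjusted p of 0.386, 0.297 and 0.602). Without that array, an alternative chosen after seeing the data, 88 probes were called, of which 75 were higher and 13 lower, and the probes over 1.5-fold in both lines were 10 higher and 2 lower.

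The called probes moved alike in both lines and in the RNA isolations, as a test with the line as a block requires in part. The 86 rising probes had a median of 1.43-fold in line 4, from 1.22 to 1.85, and of 1.41-fold in line 6, from 1.17 to 1.69. The change was larger in line 4 for 49 of the 86. Each of the 86 was higher at day 1 in all 4 pairs of same-numbered isolations, with median differences of 0.32 and 0.38 in line 4 and of 0.33 and 0.33 in line 6. For 83 of the 86, all 4 day 1 arrays were above all 4 day 0 arrays, which held for 1.32% of all probes. The 10 falling probes had a median of 0.672 of the day 0 level in line 4 and 0.733 in line 6, and all 4 isolation pairs of each were lower. For 7 of the 10 the arrays of the days did not overlap (1.06% of all probes).

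Calls made from either isolation alone were read in the other, whose arrays had no part in the choice. The paper counts the isolations as technical replicates of a line, so this reading covers repeated RNA isolation and adds no further clone. With isolation 1 alone, 5 probes were called higher and 2 lower, and all 7 moved the same way in isolation 2, with medians of 1.58-fold and 0.639-fold. With isolation 2 alone, 43 were called higher, of which 42 were higher in isolation 1, with a median of 1.41-fold there against 1.51-fold where they were chosen. The 3 called lower were lower in isolation 1 too (median 0.626-fold). Across all probes the picture was weak, since the changes of isolations 1 and 2 correlated at 0.049 in line 4 and 0.0933 in line 6. When the isolation numbers were crossed between the days, these correlations were −0.459 and −0.243, so same-numbered Q74 arrays deviated together. The same held in Q23 line 5 (0.0285 against −0.333 crossed) and PC12 (0.0186 against −0.471), but not in Q23 line 1, where the same numbers gave −0.466 and the crossed numbers −0.17.

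The mean value of the 86 probes placed the 20 arrays of days 0 and 1 as follows. At day 0, the Q74 arrays were at 5.82 and 5.84 in line 4 and at 5.79 and 5.86 in line 6. At day 1 they were at 6.13 and 6.25 in line 4 and at 6.13 and 6.19 in line 6. The Q23 arrays ran from 5.80 to 5.88 at day 0 and from 5.87 to 5.96 at day 1, and the PC12 arrays from 5.96 to 6.02 over both days. The uninduced Q74 and Q23 arrays thus overlapped, and the 4 Q74 arrays of day 1 lay above the others of these days. Both probe sets were chosen by the change between these Q74 arrays, so the gap between the Q74 days follows from the choice. The mean of the 10 falling probes was 7.39 and 7.56 in line 4 and 7.21 and 7.29 in line 6 at day 0, and 7.02 and 7.15, and 6.92 and 6.92, at day 1. The Q23 arrays of these days stayed at 7.24 to 7.60. The PC12 arrays were at 6.77 to 6.86, below every Q74 array of these days.

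**Figure D3:**
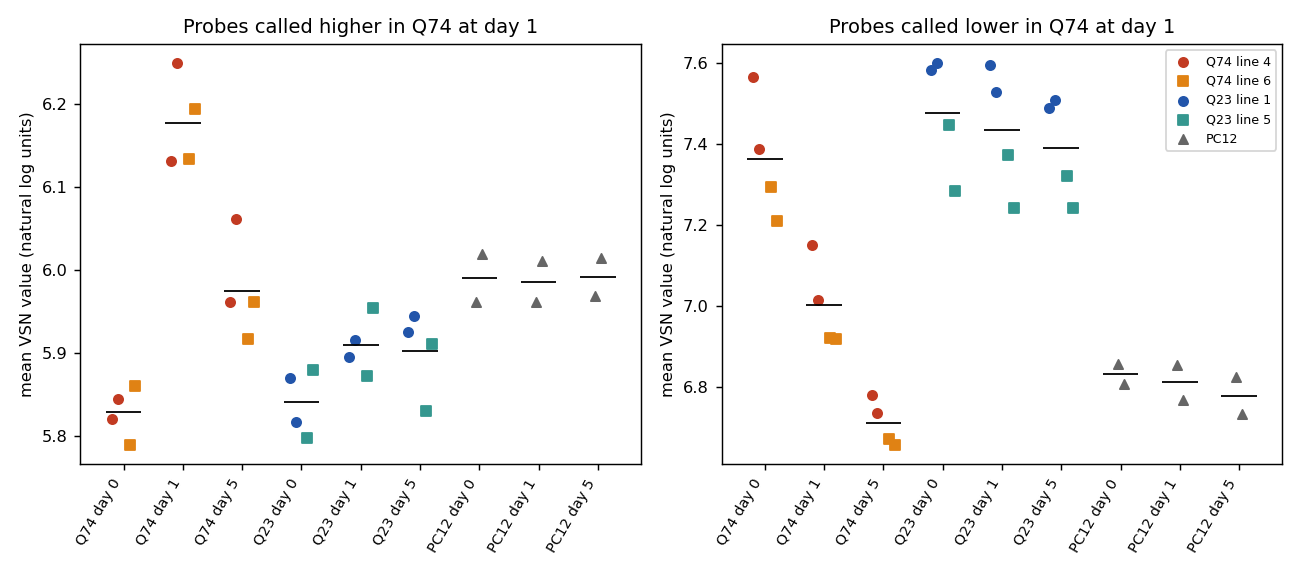
Mean value of the 86 probes called higher (left) and the 10 called lower (right) in Q74 at day 1, for each of the 30 arrays, in natural log units; points are arrays and bars are means of a group. The rising probes stand at 6.13 to 6.25 in the Q74 arrays of day 1 and at 5.92 to 6.06 at day 5, and the falling probes go down to 6.66 to 6.78 at day 5. Both sets were chosen by the change from day 0 to day 1 in Q74, so that gap follows from the choice.

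The same probes moved a little in Q23 and not in a common direction in PC12. At day 1, the 86 had a median of 1.06-fold in Q23 line 1 and 1.09-fold in line 5, and 74 of 86 were higher in each line. In both Q23 lines together, 64 of 86 (74.4%) were higher, against 23.9% of all probes. By isolations 1 and 2, 49 and 78 of the 86 were higher in line 1, and 72 and 68 in line 5. The Q23 mean of the 86 rose by 0.0254 to 0.0983, and it differed between isolations of a line and day by 0.0194 to 0.0819. The 86 varied together in these arrays, as given below, so such counts are not of independent probes. An unadjusted p under 0.05 for a rise in Q23 was reached by 14 of 86 (16.3%), against 1.17% of all probes, but 0 of the 86 rose by over 25% in either Q23 line. All 4 Q23 arrays of day 1 were above those of day 0 for 10 of the 86, against 0.79% of all probes. In PC12, the median was 0.999-fold, and 41 of 86 (47.7%) were higher, against 48.3% of all probes. The 10 falling probes had medians of 0.968-fold in each Q23 line and 0.987-fold in PC12, and 6 of 10 were lower in both Q23 lines, against 26.3% of all probes.

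The difference between the constructs was tested as the Q74 change minus the Q23 change. Only 1 probe of 22521 passed limma's adjustment (0.00444%), and it had fallen in Q74. None of the 86 rising probes passed. At an unadjusted limma p under 0.05, 488 probes of all were more positive in Q74 and 304 more negative. This share of 3.52% is below what that limit gives with no change at all. Over the 86, the median difference between the constructs was 1.31-fold, and over the 10 falling probes 0.737-fold, and the Q74 part of this contrast had already been used to choose both sets. The count of 1 became 52 (39 more positive and 13 more negative) with days 0 and 1 alone, where fewer means are left to estimate the spread. It became 0 with quantile normalization.

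The rises came from a band of middle signal. The 22521 probes were ranked into deciles by their mean over the 12 Q23 arrays. The Q23 levels did not enter the Q74 change, but the spread of the Q23 lines entered the test that made the calls. Deciles 7 and 8, with signals of 5.11 to 6.89, held 85 of the 86 rising probes (47 and 38), which is 1.89% of the 4504 probes there. The other rising probe was in decile 6. The falling probes were spread over deciles 7 to 10, with 1, 2, 3 and 4 probes. The 13513 probes of deciles 1 to 6 gave 1 call. In the brightest deciles, of 2252 probes each, falls outnumbered rises at an unadjusted limma p under 0.05. Decile 9 had 34 rises and 91 falls and decile 10 had 32 and 96, while decile 7 had 140 rises and 69 falls. The totals of deciles 9 and 10 were near what that limit gives with no change. The median change was −0.0094 in decile 9, −0.0109 in decile 10 and −0.0028 in decile 7. The probes past the 25% limit in both Q74 lines had the same pattern, with 87 of 88 rises in deciles 7 and 8, and 7 falls there and 11 in deciles 9 and 10. A probe's signal depends on its sequence as well as on its transcript and is not a measure of abundance between genes.

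**Figure D4:**
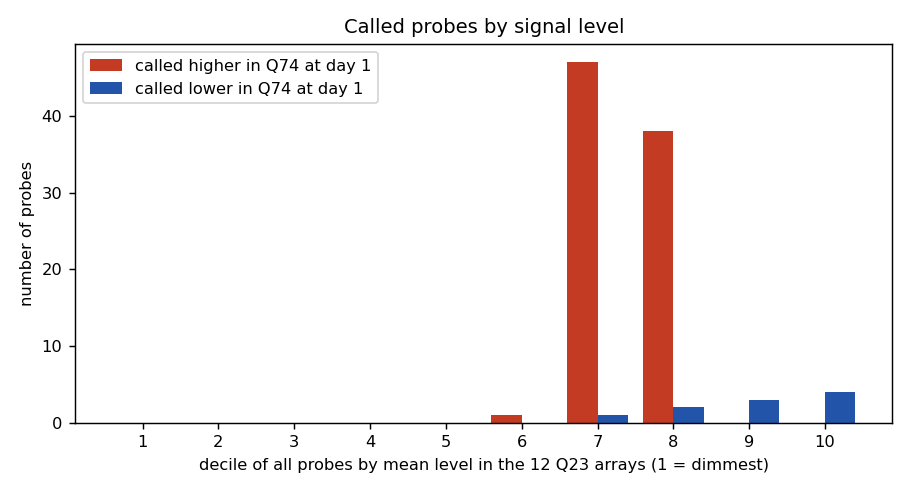
Number of probes called higher (red) and lower (blue) in Q74 at day 1 in each decile of all probes, ranked by mean signal over the 12 Q23 arrays, with the dimmest decile at the left. Rises fall in deciles 7 and 8 (47 and 38 probes) and 1 in decile 6, whereas the falls number 1, 2, 3 and 4 in deciles 7 to 10.

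The rising probes also varied together where the mutant fragment was not present. In the 18 arrays of Q23 and PC12, the difference between the isolations of a line and day was taken for each probe, over 9 pairs. These differences had a mean correlation of 0.302 between pairs of the 86 probes. It was 0.0133 between the 4772 probes with signals in the range of the 86, 0.00106 over all probes and 0.0894 among the 10 falling probes. The mean of the 86 differed between the isolations of a line by at most 0.118 in the Q74 arrays of days 0 and 1. The same mean rose by 0.311 to 0.405 from day 0 to day 1, but the probes were chosen for that rise. Setting these sizes side by side is thus not a test. The part of such shared variation in the day 1 rise was not tested.

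Among the 86, the largest fitted rise was that of probe ILMN_1354393. Its Q74 values were 5.64 and 5.78 in line 4 and 5.60 and 5.75 in line 6 at day 0, and 6.17 and 6.42 in line 4 and 6.16 and 6.20 in line 6 at day 1. The days did not overlap. The rise was 0.55 on the natural log scale, or 1.73-fold (SE 0.052, limma adjusted p = 0.00021), with 0.58 in line 4 and 0.51 in line 6. In Q23 it was 0.11 in line 1 and 0.10 in line 5, where the day 0 arrays spanned 5.60 to 5.85 and the day 1 arrays 5.75 to 5.88, and in PC12 the difference was −0.013. The Q74 change exceeded the Q23 change by 0.44 (limma adjusted p = 0.067), which did not pass.

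Probe ILMN_1353665 had a rise of the same size and a different structure. Its day 0 values were 5.89 and 4.98 in line 4 and 5.92 and 5.42 in line 6, and its day 1 values were 6.56 and 5.54, and 6.52 and 5.77. Isolation 1 was the higher in each line and day, so the days overlapped although each same-numbered pair rose. The fitted rise was 0.55 (1.73-fold, SE 0.091, limma adjusted p = 0.0069). The call was lost in 9 of 19 alternatives, some of which are 1 and the same fit. It was lost with each RNA isolation as a sample, from the Q74 groups alone (limma adjusted p = 0.10) and without isolation 1 (limma adjusted p = 0.17). Leaving out either Q23 line gives the fit of the Q74 groups alone. The alternatives ran up to an adjusted p of 1. Isolation 1 was also the higher in Q23, with 5.98 and 5.47 in line 1 and 5.64 and 4.79 in line 5 at day 0, where the day 1 changes were −0.062 and 0.035.

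The largest fall was that of probe ILMN_1369157. Its Q74 values were 7.43 and 7.81 in line 4 and 7.49 and 7.53 in line 6 at day 0, and 7.04 and 7.28, and 6.94 and 7.05, at day 1. Every day 1 array was below every day 0 array. The fall was to 0.615 of the day 0 level (difference −0.49, SE 0.053, limma adjusted p = 0.00026). The Q23 arrays remained between 7.60 and 7.89 on both days, and those of PC12 between 7.15 and 7.38. This was the 1 probe whose change differed between the constructs, by −0.54 (SE 0.075, limma adjusted p = 0.042). With RNA isolation 1 or 2 left out, no probe differed between the constructs (0 called by limma in each), so this call was lost there. At an unadjusted limma p under 0.05, 462 and 584 probes were then more positive and 620 and 501 more negative in Q74. With 1 line left out, the change of its construct rests on 1 clone, so no count is given. The fall of ILMN_1369157 in Q74 was called in 18 of 19 alternatives, which include fits with 1 Q74 line.

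Probe ILMN_1350468 fell from 8.60 and 8.25 in line 4 and 8.42 and 8.34 in line 6 to 7.90 and 7.77 in line 4 and 8.02 and 8.03 in line 6. The days did not overlap, and line 4 fell by 0.59 against 0.35 in line 6. The fitted fall was to 0.625 of the day 0 level (difference −0.47, SE 0.058, limma adjusted p = 0.00075). Q23 differed by −0.079 in line 1 and −0.16 in line 5, and PC12 by 0.042. The Q74 change was more negative than that of Q23 by 0.35 (difference −0.35, limma adjusted p = 0.43), which did not pass.

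**Figure D5:**
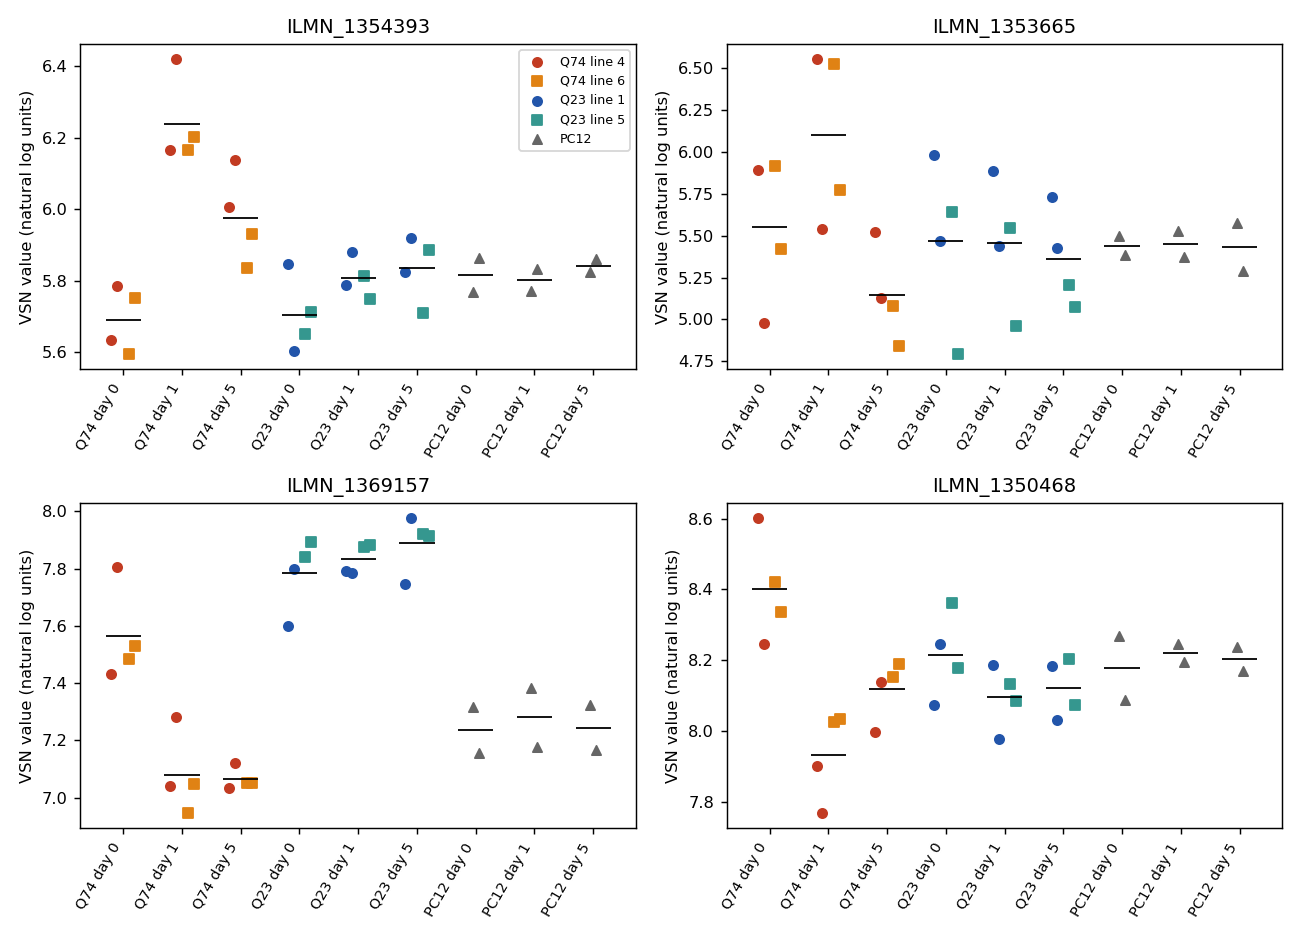
Values of 4 probes in each of the 30 arrays, in natural log units, by construct and day; points are RNA isolations, with the line given by colour and shape, and bars are group means. ILMN_1354393, ILMN_1369157 and ILMN_1350468 have no overlap between days 0 and 1 of Q74, whereas ILMN_1353665 does.

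The values of the same probes at day 5 are given for comparison. Day 1 and day 5 are both set against the same day 0 arrays, so their values are given side by side and not as 2 findings. The 86 probes had a median of 1.40-fold at day 1 and 1.16-fold at day 5, with 1.21-fold in line 4 and 1.13-fold in line 6 at day 5. Their mean over the Q74 arrays of day 5 was 5.92 to 6.06, between the values of days 0 and 1. Probes chosen for a high day 1 value may be lower at another time for that reason alone. The 10 falling probes had a median of 0.713 at day 1 and 0.672 at day 5. They split into unlike courses, with 5 lower at day 5 than at day 1 and 5 nearer to or above day 0. Of the 5 lower, ILMN_1369157 was almost unchanged from day 1 to day 5 (difference −0.014, limma adjusted p = 0.93). The deepest 4 at day 5 stood at 0.192, 0.297, 0.299 and 0.373 of the day 0 level, having been at 0.673, 0.670, 0.745 and 0.763 at day 1, and ILMN_1369157 was at 0.606. The other 5 were at 0.746, 0.755, 0.801, 0.840 and 1.03 at day 5, after 0.703, 0.625, 0.729, 0.723 and 0.738 at day 1. ILMN_1354393 was 0.28 above day 0 at day 5 (limma adjusted p = 0.0016), and ILMN_1353665 had gone below it, by −0.41 (limma adjusted p = 0.0069). ILMN_1369157 remained at −0.50 and ILMN_1350468 at −0.28 (limma adjusted p of 1e-05 and 0.0039).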

How the data were processed

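RNA was isolated with RNeasy columns and hybridized to Illumina RatRef-12 arrays, 1 array for each RNA isolation. The authors took the bead mean of a probe from BeadStudio 3.1.7, with no subtraction of background, applied VSN in R 2.4.1, and deposited the values on what is read here as a natural log scale. The base was inferred from their range of 3.906 to 11.15, since the top of the scanner's range is 11.09 on a natural log scale. Whether all arrays were normalized together is not given in the sources used here.

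Isolations were averaged to 12 values, 1 for each line and day. In R 4.3.3 with limma 3.58.1 these were fitted with the line as a block and day effects for each construct (4 residual degrees of freedom, prior 12.52), and p-values were two-sided and adjusted by Benjamini-Hochberg over 22521 probes at 0.05. No probe was filtered out. The days are paired because same-numbered samples are the same cell line. The line 4 minus line 6 differences of days 0 and 1 correlated at 0.836. The median standard error of the Q74 change was 0.0544, and the few arrays and clones set the precision. The fit was tested on simulated data.

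PC12 arrays were not tested. The labels name no chip, so batches were not tested. Named probes are the 2 largest rises and 2 largest falls called and moving the same way in both lines and their isolations. Gene lists and cell type markers were not used. The comparison, its probe sets and its alternatives were chosen with earlier results of these data known. Level differences between clones are taken up by the block. P-values rest on how far the changes between days differed between the 2 clones of a construct. This spread was pooled over both constructs and all days of the fit. It was then moderated by limma towards a value taken from all probes, with 12.52 prior against 4 residual degrees of freedom.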

Additional observations from a re-analysis of the deposited data

Results flagged for a closer look

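In the Q74 arrays of day 1, probe ILMN_1354393 read 6.42 in isolation 2 of line 4 and 6.16 to 6.20 in the other 3 arrays, a gap of 0.856 of the range of the 4 arrays. Chance alone gives a gap this wide in about 1 of 20 groups. The day 1 arrays were above those of day 0 (5.60 to 5.78) with or without it.

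For the largest rise of Q74 line 4, 5.53-fold, 1 of the 4 arrays of this line on days 0 and 1 stood apart from the other 3, with a gap of 0.975 of the range. It was isolation 1 of day 0, at 5.40, against 8.79 to 8.88 in the others.

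ILMN_1369157 changed over the first day by a different amount in each construct, by −0.5355 in natural log units (Q74 minus Q23, limma adjusted p = 0.042). It fell in Q74 (−0.49) and differed by 0.049 in Q23.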

How the results depend on the processing

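The count of 96 probes called in Q74 fell to 4 without the replicate block, to 62 when the block was random and to 49 from the Q74 groups alone. It was 213 from days 0 and 1 alone, a fit with fewer means to estimate the spread. There, ILMN_1354393 and ILMN_1353665 had the same limma adjusted p of 1.6e-12, although their SEs in the main fit were 0.052 and 0.091. Leaving out a line or an RNA isolation gave 7 to 74. The upper end of this range is a fit with 1 Q74 line left out, where the change rests on 1 clone, so it is not read as a result. The other alternatives gave 86 to 118. All 86 rising probes had a positive difference in every alternative. For most alternatives the choice fixed this, since each of the 86 rose in all 4 pairs of same-numbered isolations. The single probe that differed between the constructs became 0 without the block, with a random block, with each RNA isolation as a sample, with quantile normalization and without the dimmest 25% of probes. It became 52 from days 0 and 1 alone, 6 with the isolation number as a further block and 10 with the line and day as a random block. It was 0 when either isolation was left out. The count for Q23 was 0 throughout. The 12 probes over 1.5-fold higher in both Q74 lines were 88 at a limit of 25% and 8 to 26 with a line or isolation left out, where a single Q74 line is counted alone. The correlation of 0.162 between the Q74 lines was 0.16 to 0.212 under other scalings and without the dimmest 25% of probes. No named probe changed direction in 19 alternatives, as their choice largely required. The 19 include repeats. Leaving out either Q23 line gives the fit of the Q74 groups alone, and adding the PC12 arrays gives the main fit. ILMN_1354393, ILMN_1369157 and ILMN_1350468 lost their call only without the replicate block (limma adjusted p of 0.052, 0.075 and 0.073). Apart from the changes that follow from fewer samples, the cause of these changes was not tested.

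With only 2 clones for each construct, the spread between clones is poorly estimated. Same-numbered isolations of a Q74 line deviated together, so they are not independent. Dim probes are compressed by the variance stabilization, and a change in them would be hard to see. No gene names were used, so several probes of 1 gene could be among the 86.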
